A study of Mus musculus with 6 samples.

Results

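The RNA of 6 CC chemokine genes (Ccl2, Ccl3, Ccl4, Ccl7, Ccl8 and Ccl12) was followed through single cells of the mouse sciatic nerve. They were chosen by symbol out of 32285 gene symbols in the count table, and all 6 were found. CC chemokines are small secreted proteins that bind G protein-coupled receptors on leukocytes and direct their migration. Ccl2, Ccl7, Ccl8 and Ccl12 are monocyte chemoattractant proteins, and Ccl2, Ccl7 and Ccl12 act through the receptor Ccr2. Ccl3 and Ccl4 are macrophage inflammatory proteins, and Ccl3 acts through Ccr1 among others. In peripheral nerve, Ccl2 is known for drawing blood monocytes into the tissue after injury. Immediate early genes such as Fos, Jun and Egr1 are switched on within minutes of a stimulus without new protein synthesis, and enzymatic dissociation of a tissue is one such stimulus.

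The cells came from 23-week-old C57BL6/J mice on 1 of 2 diets, named SD and HFD in the labels. No transgene or drug is named for either diet. Sciatic nerves were digested with trypsin and collagenase II, cells were enriched with magnetic beads against O4, an antigen of Schwann and oligodendrocyte lineage cells, and UMIs (distinct RNA molecules) were counted with the 3' v2 chemistry of 10x Genomics. Cells of 3 SD and 2 HFD libraries were analysed, and HFD replicate 3 was not analysed here. The labels do not say whether the libraries came from separate animals.

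The table held 364 cells, from 40 to 106 per library, with 37744 to 349450 UMIs per library. The authors' cluster named Macrophages held 143 of these cells. The labels call all samples Schwann cells, so the cluster was set against marker genes. All 15 macrophage markers (among them C1qa, Cd68 and Csf1r) were counted in it, and together they made up 61905 ± 8607 counts per 1000000 UMIs (CPM, mean ± SD over 5 libraries). Schwann lineage markers were nearly absent from it, with 4 UMIs from 1 of 7 genes, and mast cell and pericyte markers were at 0. Myelinating Schwann cell markers had 300 UMIs from 9 of 12 genes (857 ± 879 CPM, highest in SD replicate 3 at 2412), monocyte markers 231, B cell markers 109 and neutrophil markers 92 UMIs. The other clusters keep the names in the deposited table (mySC, SCP, repairSC and nmSC). These names did not all match the markers: repairSC held 0 UMIs of the Schwann lineage list, and nmSC held 3 of its 7 genes. No barcode was shared between libraries. In repairSC, 36 barcodes ended in the same 9 bases, and these held 1 UMI of the 6 genes.

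The libraries were uneven in macrophages, which bears on each comparison below. SD replicates 1, 2 and 3 had 29, 24 and 8 macrophages with 143482, 61635 and 8291 UMIs, and HFD replicates 1 and 2 had 40 and 42 with 223683 and 144980. Of the 143 macrophages, 75 had at least 1000 UMIs and 68 had fewer.

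The 6 genes lie on chromosome 11 of the mouse genome (GRCm38, GENCODE M21 annotation) in 2 groups. Each has 3 exons. Ccl2 (82035571 to 82037453), Ccl7 (82045712 to 82047525), Ccl12 (82101845 to 82103400) and Ccl8 (82115185 to 82116799) are all on the plus strand and span 81.2 kb. Ccl3 (83647844 to 83649355, minus strand) and Ccl4 (83662584 to 83664683, plus strand) span 16.8 kb. The gap between the groups is 1.53 Mb. Ccl2 overlaps the antisense gene Gm17268, and whether counting used strand is not given in the sources used here, so its counts are uncertain to that extent.

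Promoters from RefSeq (GRCm38.p6, 250 bases before to 50 bases after the annotated start) were at hand for Ccl12, Ccl8 and Ccl3. They are shown because Ccl12 and Ccl8 are next to each other on the chromosome and differed in how their level went with the depth of a macrophage, while Ccl3 stands for the other group of genes. Each is printed 5′ to 3′ on the gene's strand, and capitals mark a match to the TATA box letters TATAAA. The Ccl12 window is chr11:82101595-82101894 on the plus strand, the Ccl8 window chr11:82114935-82115234 on the plus strand, and the Ccl3 window chr11:83649329-83649628 on the minus strand.
Ccl12: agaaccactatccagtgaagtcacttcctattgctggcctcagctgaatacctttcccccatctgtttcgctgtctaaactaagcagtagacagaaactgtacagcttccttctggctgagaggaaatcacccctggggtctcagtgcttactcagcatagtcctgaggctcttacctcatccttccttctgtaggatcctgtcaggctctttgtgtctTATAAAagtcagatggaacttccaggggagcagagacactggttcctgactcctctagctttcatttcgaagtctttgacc
Ccl8: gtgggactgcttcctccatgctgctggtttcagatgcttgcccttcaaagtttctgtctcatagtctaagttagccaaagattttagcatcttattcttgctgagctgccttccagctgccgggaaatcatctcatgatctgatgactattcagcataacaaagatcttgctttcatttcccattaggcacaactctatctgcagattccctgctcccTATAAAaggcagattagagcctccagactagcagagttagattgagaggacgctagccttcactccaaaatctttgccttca
Ccl3: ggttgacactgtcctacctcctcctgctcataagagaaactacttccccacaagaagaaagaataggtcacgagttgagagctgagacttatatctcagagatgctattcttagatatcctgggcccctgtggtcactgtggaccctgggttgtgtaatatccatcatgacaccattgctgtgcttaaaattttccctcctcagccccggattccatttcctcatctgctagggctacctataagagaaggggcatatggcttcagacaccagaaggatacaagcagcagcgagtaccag
TATAAA began 31 bases before the start of Ccl12 and 32 bases before that of Ccl8, and it was not found in the Ccl3 window on either strand. The same letters were in 13.6% of 32851 RefSeq promoters of the same length. Matches to TGANTCA (the AP-1 motif, bound by Fos and Jun proteins), to the NF-kappaB consensus and to the core of the interferon-stimulated response element (GAAA, any 2 bases, GAAA) were searched on both strands and found in none of the 3 windows. They were in 7.81%, 4.51% and 3.44% of all promoters. These windows do not cover distal enhancers, and a match or its absence is a description of letters only.

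Macrophages held most of the RNA of all 6 genes. Of 3408 UMIs, 93.8% lay in macrophages, which were 143 of 364 cells. Ccl12 was the most restricted, with 99.4% of its 714 UMIs there, followed by Ccl3 with 97.9% of 622 and Ccl4 with 96.8% of 1030. Ccl8 had 95% of 100 UMIs in macrophages. Ccl7 and Ccl2 were less restricted, with 85.7% of 308 and 82.5% of 634. Clusters were made from all genes, so macrophages against the rest is a description with no test.

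Ordered by the 6 genes summed, macrophages came first at 9477 ± 11719 CPM, then nmSC at 1150 ± 1570 (4 libraries), repairSC at 384 ± 724, mySC at 281 ± 392 and SCP at 2.56 ± 5.73. No neighbouring clusters in this order differed by more than the SD between libraries. Single libraries set these means: without SD replicate 3 macrophages were at 4368 ± 3017 CPM, and without HFD replicate 1 nmSC was at 369 ± 192 and repairSC at 61.8 ± 79.9, below mySC at 310 ± 446. SCP, the cluster with the highest mean level of myelinating Schwann cell markers, had 1 UMI of Ccl12 in 60 cells and served as a measure of stray RNA. After each cell was thinned to 1000 UMIs, 59.3% of macrophages had a UMI of any of the 6 genes, against 0.345% of SCP cells (median depths 7831 and 4374 UMIs, 68 macrophages and 3 SCP cells left out). Without thinning the shares were 60.8% of all 143 macrophages and 1.67% of all 60 SCP cells. Of the 75 macrophages of at least 1000 UMIs, 77.3% had a UMI before thinning. Per gene, unthinned shares of all 143 macrophages were 31.5% for Ccl2, 29.4% for Ccl12, 28.0% for Ccl3, 25.2% for Ccl4, 19.6% for Ccl7 and 10.5% for Ccl8. Thinned, over the 75 macrophages of at least 1000 UMIs, they were 30.5%, 25.2%, 27.8%, 24.0%, 12.2% and 2.93% in the same order.

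**Figure D1:**
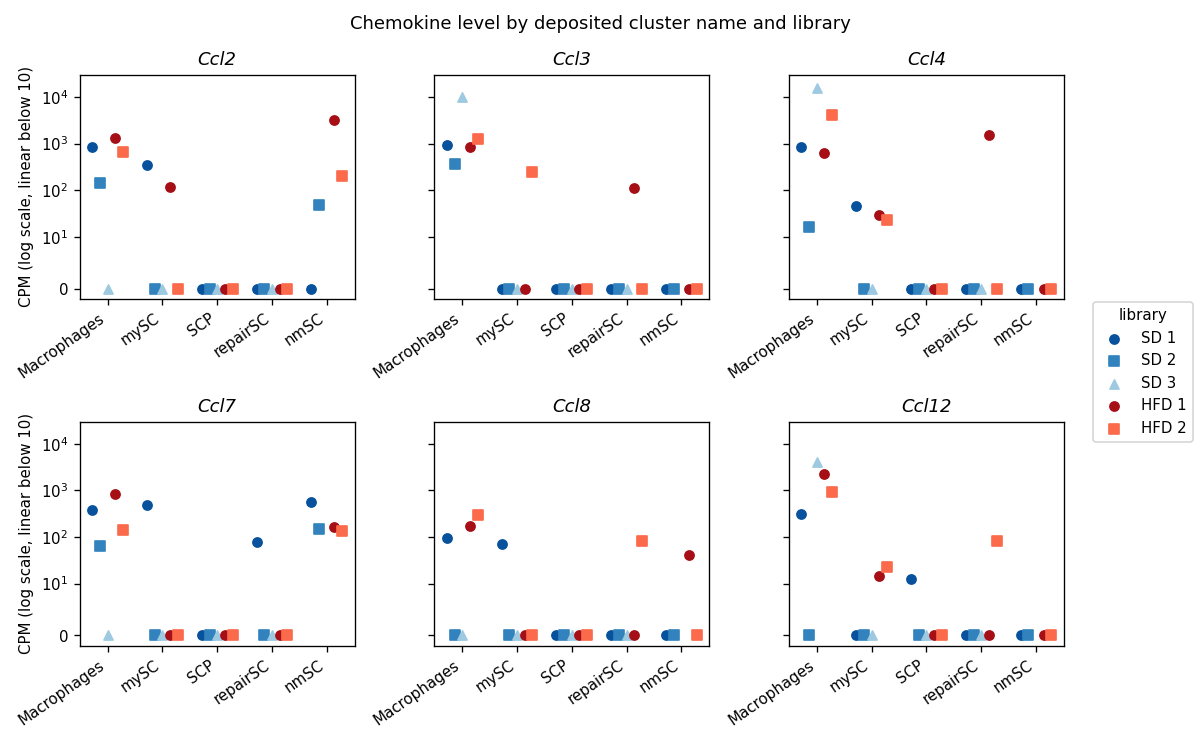
CPM of each gene (vertical axis, logarithmic above 10) by deposited cluster name (horizontal axis). Each point is 1 library, blue for SD and red for HFD. Macrophages are high for each gene in most libraries, nmSC stands out for Ccl2 and Ccl7, and SCP is at 0 for all but 1 point.

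Outside macrophages, 20 cells held 210 UMIs of the 6 genes, and a few of them held most. A cell of HFD replicate 1 in nmSC had 80 UMIs of Ccl2, the highest count of that gene in any cell, with 224 UMIs of fibroblast markers, 0 of macrophage markers and 140 of Dcn. It held most of the 88 Ccl2 UMIs of nmSC. Fibroblast markers were not particular to that cell: nmSC as a whole held 4894 UMIs from 10 of 10 fibroblast genes (52758 ± 31491 CPM over 4 libraries), against 31 UMIs of the Schwann lineage list. Ccl7 was more evenly spread there, in 7 of 24 nmSC cells and in each of the 4 libraries with such cells, and these 7 cells had 153 to 742 UMIs of fibroblast markers. A cell of SD replicate 1 in mySC had 13 UMIs of Ccl2 and 21 of Ccl7 beside 299 UMIs of mast cell markers. A cell of HFD replicate 1 in repairSC had 28 of Ccl4 beside 1458 UMIs of neutrophil markers. Macrophage markers were also found outside the macrophage cluster. A mySC cell of HFD replicate 1 had 9 UMIs of the 6 genes beside 566 UMIs of macrophage markers. A repairSC cell of HFD replicate 2 had 1 beside 528. These mySC and repairSC cells thus carried markers of other cell types than their cluster names say. No doublet caller was run.

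Within macrophages the level of each gene differed widely between libraries. Ccl2 was at 836, 146 and 0 CPM in SD replicates 1, 2 and 3 and at 1328 and 669 CPM in HFD replicates 1 and 2. Ccl7, its neighbour and fellow Ccr2 ligand, was at 376, 64.9 and 0 CPM in SD and at 827 and 145 CPM in HFD. Both were highest in HFD replicate 1, and for both the diets overlapped. In SD replicate 3 a count of 0 allows up to 362 CPM, and the Ccl7 level of HFD replicate 2 lies within that limit.

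Ccl12, the third Ccr2 ligand, was at 307, 0 and 3980 CPM in SD and at 2226 and 931 CPM in HFD. Ccl8, whose mouse protein is known to act through Ccr8, was at 97.6, 0 and 0 CPM in SD and at 170 and 297 CPM in HFD. SD replicate 2 had neither gene in 24 macrophages, which allows up to 48.7 CPM. Ccl8 was the 1 gene of the 6 whose diets did not overlap over all 5 libraries, where 14.4% of 2302 genes had both HFD libraries above all 3 SD libraries, but the limit of 362 CPM in SD replicate 3 lies above both HFD values.

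Ccl3 was at 948, 373 and 10252 CPM in SD and at 832 and 1235 CPM in HFD. Ccl4 was at 850, 16.2 and 15680 CPM in SD and at 617 and 4180 CPM in HFD. SD replicate 3 was the highest for Ccl3, Ccl4 and Ccl12, and 1 of its 8 macrophages held 239 of its 248 UMIs of the 6 genes. Without the top macrophage of each library, Ccl4 in SD replicate 3 was at 855 CPM, which is 1 UMI of 1170 and under the 2564 CPM that a count of 0 allows there. Ccl3, at 4274 CPM on 5 UMIs, and Ccl12, at 2564 CPM on 3 UMIs, remained highest in this library, with 126 to 751 and 0 to 1365 CPM in the other 4.

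A handful of cells held most of the UMIs. Over all 364 cells, 7 cells held 50% of the 3408 UMIs and 21 cells held 80%. For single genes, 50% lay in 3 cells for Ccl4, Ccl7 and Ccl12, 4 for Ccl8, 5 for Ccl3 and 7 for Ccl2. For 80%, 7 cells sufficed for Ccl7, 9 for Ccl4 and Ccl8, 10 for Ccl12, 12 for Ccl3 and 16 for Ccl2. By both measures Ccl2 took the most cells. Of the 308 UMIs of Ccl7, 94 were in 1 cell, but its last UMIs were scattered, and 90% took 15 cells against 12 for Ccl4 and Ccl8.

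**Figure D2:**
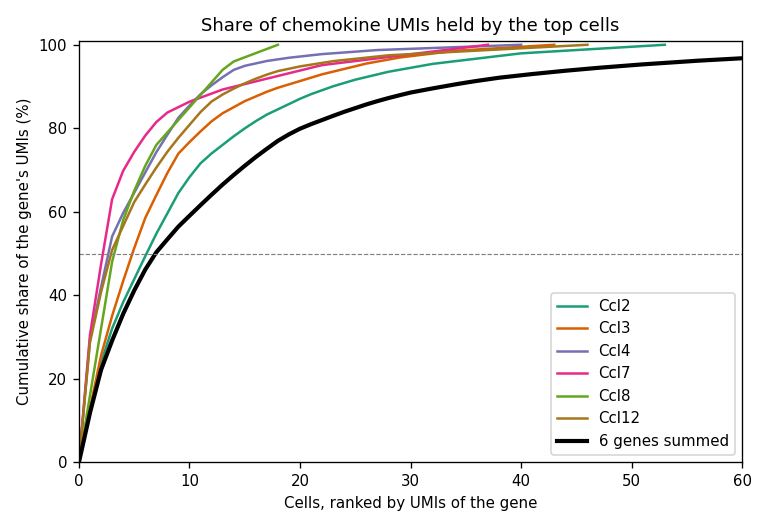
Cumulative share of a gene's UMIs (vertical axis, %) against the number of cells ranked from the most UMIs of that gene (horizontal axis, first 60 cells). The dashed line is 50%, which the 6 genes summed (black) reach at 7 cells.

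The cells at the top differed in which gene led. The first, from HFD replicate 2, had 404 UMIs of the 6 genes, 303 of them Ccl4, or 3.42% of all its UMIs. The second, from HFD replicate 1, had 350, of which 205 were Ccl12, 59 Ccl3, 48 Ccl7 and 35 Ccl2. The third was the SD replicate 3 cell, with 129 of Ccl4, 80 of Ccl3 and 30 of Ccl12 and none of Ccl2 or Ccl7. The sixth, from HFD replicate 1, was led by Ccl7 (94 UMIs), and the seventh, from SD replicate 1, by Ccl2 (71) and Ccl7 (52).

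Of the top 20 cells, 19 were in the macrophage cluster, and the other was the nmSC cell with fibroblast markers. They came from 4 libraries: 4 from SD replicate 1, 1 from SD replicate 3, 9 from HFD replicate 1 and 6 from HFD replicate 2. Their depth was 3364 to 13419 UMIs and their mitochondrial share 0.960% to 4.68%. None of the 20 had a UMI of Ccl8. No cell had all 6 genes, and 8 macrophages with 5 of them held 34.3% of all UMIs of the 6 genes.

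Co-expression was described in the 74 macrophages with at least 1000 UMIs of the 4 libraries with at least 10 macrophages (21 and 8 in SD replicates 1 and 2, 27 and 18 in HFD replicates 1 and 2). Pearson's r was taken on log2(CPM + 100) after centring within library. Cells of a library share it and its depth, so r is a description and has no p. Over the 15 pairs the median r was 0.27.

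The pairs with the highest r were neighbours on the chromosome. Ccl2 and Ccl7 had r = 0.57. Ccl2 was counted in 18 of the 22 macrophages with Ccl7 (81.8%) and in 36.5% of those without. This held in each library, with r of 0.68 and 0.49 in SD replicates 1 and 2 and 0.52 and 0.65 in HFD replicates 1 and 2. Ccl3 and Ccl4 had r = 0.52, and Ccl4 was counted in 58.8% of macrophages with Ccl3 against 22.5% of those without. By library their r was 0.75, -0.22, 0.61 and 0.38 in the same order, and the negative value came from the 8 cells of SD replicate 2, where Ccl4 had 1 UMI.

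All other pairs had lower r, and some pairs across the 2 chromosome groups lay above some pairs within a group. Ccl12 had r = 0.40 with Ccl4 and 0.35 with Ccl3, against 0.33 with Ccl2 and 0.28 with Ccl7, which lie in its own group. That order did not hold in each library. In SD replicate 1 the r of Ccl12 was -0.05 with Ccl4 and 0.17 with Ccl3, against 0.59 with Ccl2 and 0.54 with Ccl7. In HFD replicate 1 these were 0.47, 0.50, 0.33 and 0.21, and in HFD replicate 2 they were 0.66, 0.37, 0.16 and 0.29. Without HFD replicate 2, Ccl12 had r = 0.28 with Ccl4 and 0.38 with Ccl2. Ccl12 was counted in 67.6% of macrophages with Ccl3 and in 20% of those without. Ccl2 and Ccl3 had r = 0.38, while Ccl2 and Ccl4 had r = 0.14. Ccl8 had r between -0.11 and 0.14 with the other genes, from 4 cells with a Ccl8 UMI, which is too few to read.

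**Figure D3:**
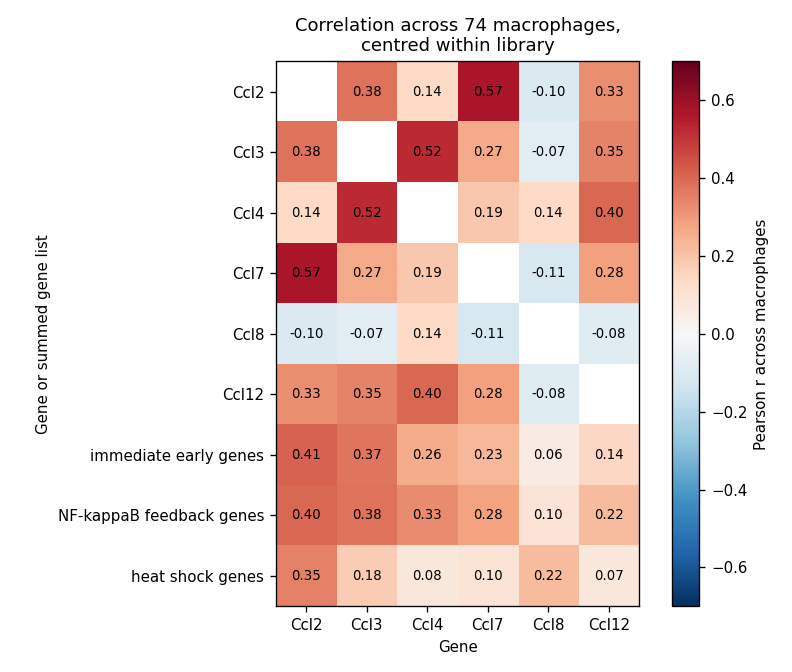
Pearson's r across 74 macrophages of log2(CPM + 100), centred within library, between each gene (horizontal axis) and the other genes or 3 summed gene lists (vertical axis). The deepest red squares are Ccl2 with Ccl7 (0.57) and Ccl3 with Ccl4 (0.52), and the Ccl8 row is pale.

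Most Ccl8 UMIs lay in shallow macrophages, unlike those of the other 5 genes. Of its 95 macrophage UMIs, 72 were in 11 of the 68 macrophages with fewer than 1000 UMIs, at 2088 CPM, and 23 were in 4 of the 75 deeper ones, at 42.0 CPM. Pooled over libraries, the other 5 genes were lower in the shallow cells than in the deep ones: Ccl4 at 377 against 1797 CPM, Ccl2 at 377 against 931, Ccl3 at 290 against 1094, Ccl7 at 261 against 466 and Ccl12 at 1044 against 1231. In single libraries the direction for Ccl2 and Ccl7 was mixed, as in SD replicate 2, where both were higher in shallow cells on 5 and 2 UMIs. The direction for Ccl8 was the same in each of the 3 libraries that held it. In SD replicate 1 it was at 2084 CPM in shallow and 21.7 in deep macrophages. In HFD replicate 1 it was at 2129 and 88.5 CPM, and in HFD replicate 2 at 3752 and 7.47 CPM. Ccl12 went with Ccl8 in HFD replicate 2 alone, at 2859 CPM in shallow and 770 CPM in deep macrophages, with 27 of its 32 shallow UMIs in 1 cell.

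**Figure D4:**
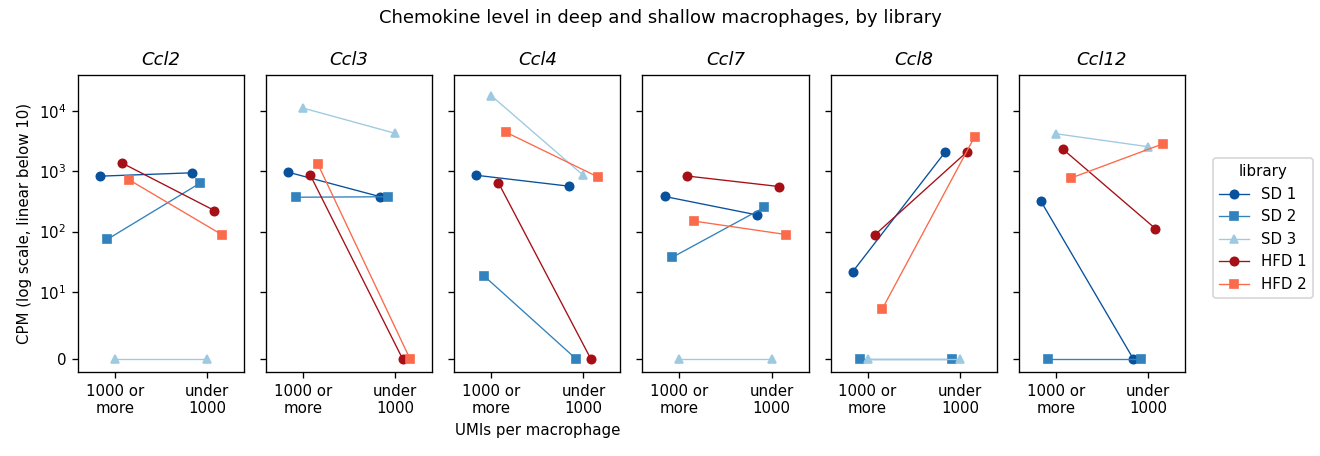
CPM of each gene (vertical axis, logarithmic above 10) in macrophages with at least 1000 and with fewer than 1000 UMIs (horizontal axis). Each line joins the values of 1 library. Ccl8 rises toward shallow cells in the 3 libraries that held it, while Ccl2 falls in HFD replicates 1 and 2.

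The division at 1000 UMIs and the genes that follow were looked at after the Ccl8 values were seen, and no test was made. Single cells with Ccl8 reached 16 UMIs of it among 837, or 1.91% of the cell's RNA. Of the 15 macrophages with Ccl8, 10 also had a UMI of another of the 6 genes. Among the 68 shallow macrophages, 11 had Ccl8, 8 had Ccl2 (2 with both), 6 had Ccl7 (4 with both) and 10 had Ccl12 (3 with both). Ccl3 was in 5 and Ccl4 in 6, none of them with Ccl8, and counts this small give no difference to read. The 12 markers of connective tissue and perivascular macrophages together had 132 UMIs in the 11 shallow cells with Ccl8 (16274 CPM) and 167 UMIs in the 57 without (6333 CPM). Of the 12 genes, 11 were at a higher CPM in the cells with Ccl8 and 1, Mgl2, at a lower one. HFD replicate 1 gave 92 of the 132 UMIs, from 4 cells. By library the list was at 13557 CPM with and 11680 CPM without Ccl8 in SD replicate 1, at 27332 and 12415 CPM in HFD replicate 1, and at 6588 and 2077 CPM in HFD replicate 2. Immediate early genes were at 23027 CPM in shallow against 43049 CPM in deep macrophages, and myelinating Schwann cell markers at 1653 against 444 CPM. The part of depth and of Schwann cell RNA in the Ccl8 pattern was not tested.

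Summed, the 6 genes varied with immediate early genes from macrophage to macrophage in 3 of the 4 libraries. Over the same 74 cells, the 6 genes summed had r = 0.52 with the 22 immediate early genes summed. By library r was 0.54 and 0.11 in SD replicates 1 and 2 and 0.72 and 0.47 in HFD replicates 1 and 2. Ccl2 (0.41) and Ccl3 (0.37) had the highest r, followed by Ccl4 (0.26), Ccl7 (0.23), Ccl12 (0.14) and Ccl8 (0.06). Immediate early genes were at a median of 40643 CPM in the 57 macrophages with a UMI of the 6 genes and at 1953 CPM in the 17 without.

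Depth moved with both. The 57 cells had a median of 8782 UMIs and the 17 cells 3357, and the immediate early level itself had r = 0.55 with log2 UMIs. With log2 depth removed by regression, an alternative chosen after seeing the data, the r of the summed genes was 0.46. For Ccl12 alone it was 0.01, from 0.14 before removal.

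Divided at 10000 CPM of immediate early genes, the 16 macrophages below held 29 UMIs of the 6 genes in 5 cells, at 468 CPM. The 58 macrophages above held 2777 UMIs in 52 cells, at 5803 CPM. This division was also placed after seeing the data, and 8 cells lay between 5000 and 20000 CPM. Thinned to 1000 UMIs per cell, 19.7% of the lower and 69.6% of the higher cells had a UMI of any of the 6 genes. The pooled levels were higher above the division in SD replicate 1 (3933 against 289 CPM), HFD replicate 1 (6922 against 557) and HFD replicate 2 (8019 against 756). SD replicate 2 had 1 cell below it. Macrophage markers were at 52493 CPM below and 61792 CPM above. Monocyte markers were at 1195 CPM below and 305 CPM above, with Ccr2, a gene of that list, at 727 and 303 CPM. Their part in the difference was not tested.

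**Figure D5:**
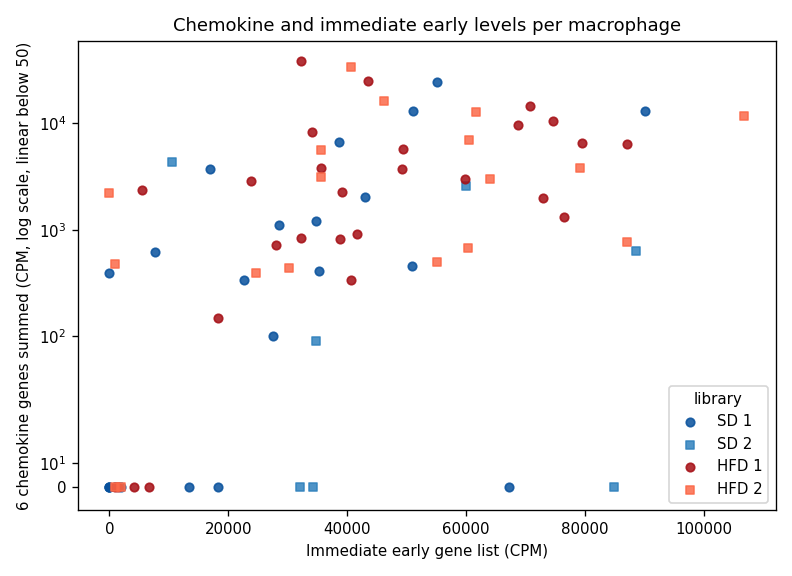
Each point is 1 of 74 macrophages, with the level of the immediate early gene list (horizontal axis, CPM) and of the 6 chemokine genes summed (vertical axis, CPM, logarithmic above 50), coloured by library. Of the 17 cells at 0 on the vertical axis, 11 lie under 10000 CPM of immediate early genes, and the 11 cells above 10000 CPM of chemokines lie at 32147 CPM or higher.

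Other inducible lists were set beside the immediate early one. NF-kappaB feedback genes (Nfkbiz, Nfkbia, Birc3 and Tnfaip3 had the most UMIs), which are targets of the same pathway that drives many chemokines, had r = 0.58 with the 6 genes summed. Heat shock genes, led by Hspa8 and Hsp90ab1, had r = 0.28. Inflammatory cytokine genes had r = 0.22 and interferon response genes -0.10. The other CC chemokines (12 genes, led by Ccl6, Ccl9 and Ccl24) had r = -0.26, with -0.36, -0.62, 0.02 and -0.34 in SD replicates 1 and 2 and HFD replicates 1 and 2. Ccl6 was in 58.0% of macrophages, a higher share than any of the 6 genes.

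The genes most like the 6 summed, of 5599 genes counted in at least 10% of these macrophages, were Egr1 (r = 0.66), Dusp1 (0.59), Atf3 (0.59), Ier2 (0.56) and Zfp36 (0.55). All 5 were on the immediate early list, and the median r of all genes was 0.06. Among their 5 closest genes, single genes had fewer of the immediate early list. For Ccl2, ranks 6 to 10 included Atf3, Egr1, Fos and Dusp1 of that list (r = 0.45 to 0.46). Closest to Ccl2 were Ccl7, Eif1a, Neu1, Ust and Klf4, and to Ccl7 Ccl2, Acsl4, Plagl2, Neu1 and Fbxw11. Closest to Ccl3 were Dnajb4 (r = 0.57), Ccl4, Atf3, G530011O06Rik and Btg2, and to Ccl4 Glipr1, Fam214a, Crlf3, Ccl3 and Gm15726. Closest to Ccl12 were Acsl4 (r = 0.57), Dst, Mmp9, Ccnd1 and Fchsd2. Stam, Aldh16a1, Zfp655, Zfx and Trim25 ranked first for Ccl8 and rest on the 4 cells that held it.

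The receptors were sparser than the ligands. Of 14 receptor genes, 7 were counted in macrophages. Ccr2, the receptor of Ccl2, Ccl7 and Ccl12, was in 23.8% of macrophages at 295 ± 187 CPM (n = 5 libraries). Ccrl2 was in 11.9% and Ccr1 in 11.2% of macrophages. Ccr8, the receptor of Ccl8, was at 0 in all 364 cells. Of CXC chemokines, Pf4 (4630 ± 3850 CPM) and Cxcl2 (1524 ± 1178 CPM) were the most abundant in macrophages.

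The effect of diet was tested on UMIs summed per library with edgeR's quasi-likelihood test and Benjamini-Hochberg adjustment over all genes. In macrophages, the 2 SD and 2 HFD libraries with at least 10 such cells were compared, which leaves out SD replicate 3. None of the 6 genes passed an adjusted p of 0.05, where 0.0474% of 2108 genes did. DESeq2 also called none of the 6. At an unadjusted p under 0.05 there were 2, Ccl8 and Ccl12, where 6.07% of all genes were under it.

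The largest log2 ratio of HFD to SD was that of Ccl12, 3.04 (SE 1.12, unadjusted p = 0.0497, adjusted p = 0.790). Ccl8 had the smallest edgeR p of the 6 genes, at a log2 ratio of 1.79 (SE 0.69, unadjusted p = 0.0231, adjusted p = 0.758). For these 2 genes both HFD libraries lay above both SD libraries, as they did for 19.8% of all genes. Ccl4 had 2.24 (SE 1.95, edgeR adjusted p = 0.943), Ccl7 0.94 (SE 1.09), Ccl2 0.87 (SE 0.72) and Ccl3 0.53 (SE 0.40), and their libraries overlapped. All 6 values were above 0, as were those of 50.4% of genes, and their median was 1.37 against 0.0058 over all genes. The 6 values come from the same 4 libraries and the same cells, so they are not independent of each other.

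Single libraries decided these values. Without SD replicate 2, in which Ccl12 was at 0, the log2 fold change of Ccl12 was 2.27. Without SD replicate 1, the SD side was SD replicate 2 alone, with 1 UMI of Ccl4 and none of Ccl8 or Ccl12. Log2 fold changes were then 10.84 for Ccl12, 8.04 for Ccl8 and 7.12 for Ccl4. Those of Ccl7, Ccl2 and Ccl3 were 2.94, 2.79 and 1.47. With 1 SD library left, neither fit shows the spread within SD, so no calls are given for them. With the 8 macrophages of SD replicate 3 added, Ccl3 and Ccl4 changed sign, to -1.34 and -0.63. Ccl7 changed sign without HFD replicate 1, to -0.81. Without the top macrophage of each library, Ccl7 was at 3.50, Ccl2 at 1.71 and Ccl3 at 0.02, and none passed.

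Libraries were also divided by a number read from their folder names, called project here. What this number stands for is not stated. SD replicates 1 and 2 and HFD replicate 1 were in project 1, and SD replicate 3 and HFD replicate 2 in project 2. In project 1 the log2 ratio of HFD to SD in macrophages was 3.86 for Ccl12, 1.91 for Ccl7, 1.80 for Ccl8, 1.43 for Ccl2, 0.51 for Ccl4 and 0.33 for Ccl3. In project 2, with 1 library per diet, it was -3.05 for Ccl3, -2.10 for Ccl12 and -1.91 for Ccl4, and Ccl2, Ccl7 and Ccl8 were at 0 in the SD library. The directions of Ccl3, Ccl4 and Ccl12 thus differed between projects. The SD side of project 2 rests on the 1 cell with 239 UMIs. Without the top macrophage of each library, Ccl4 was at 855 CPM in SD replicate 3 against 2275 CPM in HFD replicate 2, the opposite direction, while Ccl3 (4274 against 751 CPM) and Ccl12 (2564 against 680 CPM) kept theirs on 5 and 3 UMIs in SD replicate 3.

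Over all cells of a library, 3 SD and 2 HFD libraries were compared. None of the 6 genes passed in edgeR, where 0.0907% of 5510 genes did, and none passed in DESeq2. At an unadjusted p under 0.05 there was 1, Ccl8, where 4.39% of genes were under it. Ccl8 was at 57.3, 0 and 0 CPM in SD and at 112 and 139 CPM in HFD, and its fold change was 2.24 on the log2 scale (edgeR adjusted p = 0.943, SE 0.89). It did not overlap between diets, nor did 14.3% of genes with HFD above SD. The others had log2 ratios of 2.07 for Ccl2, 1.93 for Ccl12, 1.44 for Ccl7, 0.14 for Ccl4 and -0.44 for Ccl3. Thus 5 of 6 were above 0, against 51.7% of all genes. The share of macrophages was 20% to 36.2% in SD and 39.6% and 70.2% in HFD libraries, so more macrophages and more RNA per macrophage cannot be told apart in these sums. Without SD replicate 3, Ccl3 changed sign to 0.99.

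The other lists of the pathway were sparse in the macrophage test. Of the other CC chemokines 3 of 12 genes could be tested, all 3 lower in HFD (Ccl6, Ccl9 and Ccl24, at -0.39, -0.39 and -0.34) and 0 passed. Of the receptors 3 of 14 could be tested and 0 passed, with Ccr2 at -0.37. Of the immediate early genes 20 of 22 could be tested, 14 above and 6 below 0, and 0 passed. Their summed level was similar between diets, at 43506 ± 6859 CPM in SD (n = 3) and 43481 ± 2010 CPM in HFD (n = 2). Of NF-kappaB feedback genes 11 of 16 could be tested, 9 above 0, and 0 passed. Of all genes tested, 50.4% were above 0. The summed level of NF-kappaB feedback genes was 3241, 3602 and 1568 CPM in SD and 4658 and 5063 CPM in HFD, with no overlap. Over these 5 libraries, 14.4% of 2302 single genes had both HFD libraries above all 3 SD libraries. The lowest value, of SD replicate 3, rests on 8291 macrophage UMIs in all. Il1b, an inflammatory cytokine gene, was the 1 gene that passed. It was at 523, 471 and 0 CPM in SD replicates 1 to 3 and at 49.2 and 6.90 CPM in HFD, and fell by 4.01 on the log2 scale (SE 0.55, edgeR adjusted p = 0.0190). Macrophages held 116 of its 550 UMIs (21.1%), in 15 cells. Over all cells the direction of Il1b was the opposite: the 3 cytokine genes tested there, Il1b among them, were higher in HFD, and 0 passed.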

How the data were processed

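The authors deposited raw UMI counts per gene and cell barcode, with a table of each barcode's library, cluster and cluster name. The submitters' processing notes name Cell Ranger 3.1.0 and mm10. How cells were filtered, doublets treated and strand used is not given in the sources here. Libraries that the tables call control were taken as SD, because HFD is named in both and each holds 2 diets.

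CPM divide a gene's UMIs by all UMIs of the same cells. A count of 0 allows 3 counts, and limits of this kind cover counting error only. Shares were compared after thinning each cell to 1000 UMIs (expected value, hypergeometric). UMIs summed per library were tested with edgeR 4.0.16 (filterByExpr, TMM, robust quasi-likelihood fit, diet as the only term), with DESeq2 1.42.0 as an alternative, in R 4.3.3. Standard errors were derived from the F statistic and are approximate. The p-values reflect the spread among these libraries, which may be technical, since the labels name no separate animals. On simulated data for the macrophage comparison (2108 genes), 62% of genes raised and 80% of genes lowered by 2 (log2 scale) were recovered. At 3 it was 98% each. Over all cells (5510 genes), 24% of raised and 8% of lowered genes were recovered at 2, and 52% and 54% at 3. These shares do not give the power for a single gene: Ccl12, at 3.04 (SE 1.12) in macrophages, did not pass in edgeR.

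The 6 genes and all lists were chosen with earlier results of these data known. Besides the 6 genes, the text names the 5 genes with the highest r for each of them and for their sum, up to 4 genes of each list with the most UMIs in macrophages (up to 3 of cell type lists) and those that passed a test. Mgl2, Dcn, Csf1r, Cd68, C1qa, Ccr8 and Gm17268 were named outside this rule, after their values were seen. Alternatives were other scaling, no filter on low counts, DESeq2, the replicate number as a block, project number as a term, each library left out, other minimum numbers of cells and UMIs, another pseudocount and the top cells left out.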

Additional observations from a re-analysis of the deposited data

How the results depend on the processing

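The count of genes past the threshold in macrophages was 1. It was 4 with no filter on low counts and 2 to 26 with 1 library left out in turn, and 1 under the other alternatives but the block. Over all cells it was 5. It was 47 with no filter, 9 with DESeq2, 57 with project number as a term, 3 without the macrophage with most UMIs of the 6 genes in each library, 1 without the macrophage cluster, and 0 to 54 with 1 library left out. The 0 was edgeR's, without SD replicate 1, where 314 genes had an unadjusted p under 0.05 and no other tool was run. Replicate numbers are shared by the diets. Deviations of same-numbered libraries from their diet mean had correlations of 0.28 (replicate 1) and -0.089 (replicate 2) over all cells. In macrophages the correlation was -0.046 for both numbers, which is 1 value, since 2 libraries per diet deviate by equal and opposite amounts. These values cannot decide whether a number is a pair. With the replicate block 5 genes passed in macrophages, Ccl12 among them (log2 fold change 3.55, edgeR adjusted p = 9.1e-10), and 64 over all cells, with Ccl2 (1.86) and Ccl12 (4.23). Log2 fold changes that changed sign with 1 library left out were those of Ccl7 without HFD replicate 1 (-0.81, against up to 2.94 without other libraries in macrophages; -0.73, against up to 3.53, over all cells), and over all cells those of Ccl3 without SD replicate 3 (-1.01 to 0.99) and of Ccl4 without SD replicate 1 (-0.38), SD replicate 2 (-0.50) or HFD replicate 2 (-0.88, against up to 2.46). Others that changed sign were those of Ccl3 (-1.34) and Ccl4 (-0.63) with at least 3 macrophages per library, and of Ccl3 over all cells under the block (1.20) and without the top cells (0.81). The cause was not tested. Where leaving out a library left 1 in a group, that library was assumed to vary like the others. The median r of the 15 pairs lay between 0.20 and 0.31, and the r of the summed genes with immediate early genes between 0.39 and 0.55. Few cells held most UMIs, and standard errors of 0.40 to 1.95 on the log2 scale limit what the macrophage comparison could detect for the 6 genes.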
